A study of Homo sapiens with 40 samples.

Results

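The transcriptional response of hTERT-RPE1 cells on the day after transfection with CASP8AP2 siRNA was examined across all genes on the array. hTERT-RPE1 cells derive from normal retinal pigment epithelium and were made immortal with telomerase. The comparison was chosen by cell line, day and siRNA as given in the labels, and it holds 3 arrays with CASP8AP2 siRNA and 3 with control siRNA, which is 6 of the 40 arrays of the study. Both groups received 15 nM of siRNA by reverse transfection with HiPerFect and differed in the siRNA pool, which was directed against CASP8AP2 or was the AllStars negative control. The same treatment of the same cells on day 2 and of U2OS osteosarcoma cells on day 1, each with 3 arrays per siRNA, served for comparison, and values of day 3 (2 arrays per siRNA) are given beside them. The arrays of a group are labelled as biological replicates, and p-values measure the spread between arrays within groups. For days 1 and 2 this spread was estimated over 24 arrays of both cell lines, not from the 6 arrays alone. Of 22069 Ensembl genes, 1924 could be given a symbol and 20145 could not, and the latter are described by their values.

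CASP8AP2, also known as FLASH, is a component of the histone locus body, a nuclear structure at the clusters of replication-dependent histone genes. There it acts with NPAT in the transcription of these genes and takes part in the processing of their mRNAs, which end in a stem-loop and carry no poly(A) tail. Replication-dependent histones are made in S phase to package new DNA, whereas replacement variants such as the linker histone H1.0 are made outside of S phase as well. The study asked how normal and tumor cells respond to the loss of such regulators, and day 1 is the earliest time at which RNA was profiled.

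The array values of the 6 arrays lay between 1.82 and 13.31 on the log2 scale, and replicate arrays correlated with r between 0.99697 and 0.99771 across genes. The standard error of the log2 fold changes had a median of 0.087, and the number of arrays limits this precision. Few markers of the labelled cell type had a symbol, with 2 of 15 for retinal pigment epithelium. The levels with control siRNA were 4.09 for RLBP1 and 4.13 for BEST1, below the median of 5.46 over all genes and close to 4.17 and 4.28 in U2OS cells, so the retinal origin of the line could not be seen in them. Of the 3 mesenchymal markers with a symbol, FN1 and CDH2 were at 12.96 and 11.17, whereas COL1A2 was at 4.41, below that median. Of the 3 leukocyte markers with a symbol, CD3E and CD14 were at 3.22 and 3.46, and the level of the remaining marker is not given here.

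The targeted transcript was examined first. CASP8AP2 (ENSG00000118412) was at 7.58, 7.60 and 7.60 on the control arrays and at 6.60, 6.82 and 6.81 on the arrays with CASP8AP2 siRNA. All 3 knockdown arrays lay below all control arrays, with 55.5% of the transcript left (log2 fold change -0.85, SE 0.09, adjusted p = 1.79e-05). The other factors of the histone locus body and of histone gene transcription with a symbol did not pass the test. NPAT, the partner of CASP8AP2, was at 8.83 ± 0.05 (SD, n = 3) and 8.92 ± 0.05 (log2 fold change 0.09, 95% interval -0.03 to 0.22), and HINFP, a transcription factor of histone H4 genes, at 7.70 ± 0.07 and 7.80 ± 0.08 (0.10, -0.03 to 0.23).

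On day 1, 175 of the 22069 genes (0.793%) were called at an adjusted p under 0.05, of which 99 were higher (0.449%) and 76 lower (0.344%) with CASP8AP2 siRNA. In each of the 175 genes the 3 knockdown arrays lay on one side of the 3 control arrays, which was also the case for 16.2% of all genes (1770 with the knockdown arrays above and 1801 with them below). The rises reached further than the falls. A log2 fold change of at least 1 in size was seen in 14 genes that rose and 2 that fell, and 9 genes rose by at least 2. The falls ranged from -1.12 to -0.25 with a median of -0.40, and the rises from 0.19 to 3.33 with a median of 0.42, while the median over all genes was -0.004. The median level with control siRNA was 6.74 for the genes that rose and 8.23 for those that fell, compared with 5.46 for all genes. When the genes were divided into 4 equal parts by their control level, 6 (0.109%), 29 (0.526%), 75 (1.36%) and 65 (1.18%) were called from the lowest to the highest part.

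**Figure D1:**
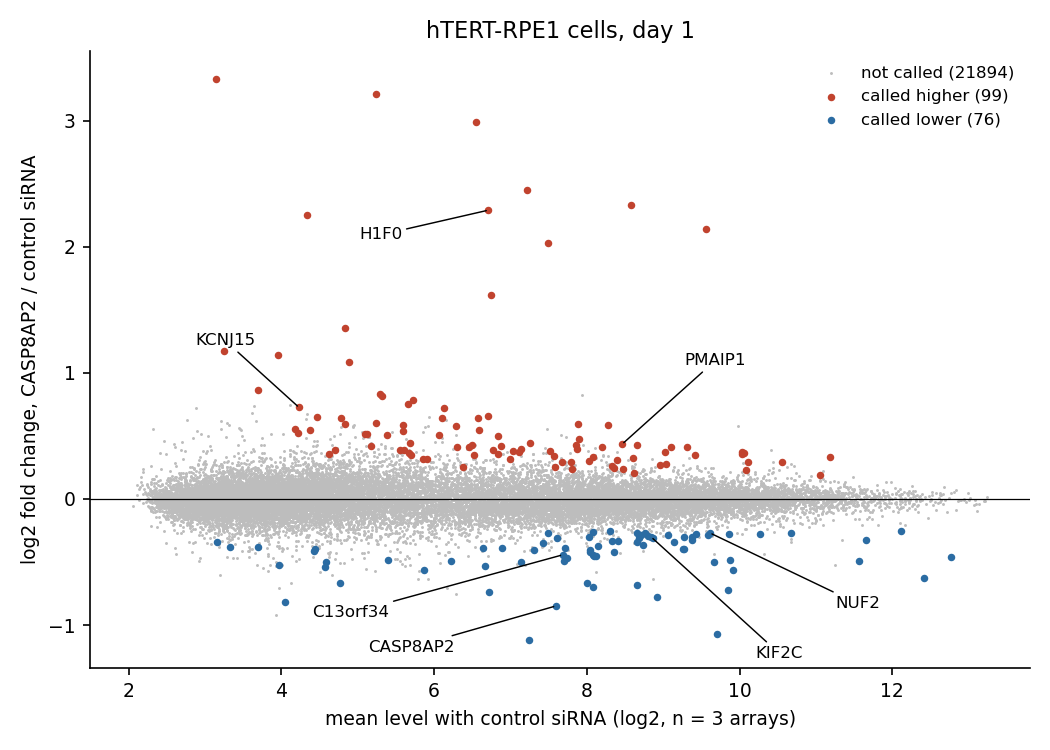
Log2 fold change of CASP8AP2 against control siRNA in hTERT-RPE1 cells on day 1 (vertical axis) plotted against the mean log2 level with control siRNA (horizontal axis), with 1 point per gene. The 99 genes called higher reach 3.33, and the 76 called lower reach -1.12.

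The shift was carried by all 3 knockdown arrays. The mean of the 99 genes that rose was 0.69, 0.72 and 0.61 above the control mean on the arrays of CASP8AP2 siRNA replicates 1, 2 and 3, and the mean of the 76 genes that fell was -0.46, -0.45 and -0.42, values that describe the genes chosen on these arrays. The number of calls varied with the arrays used. Leaving out control replicate 1, 2 or 3 gave 93, 98 or 107 calls, leaving out CASP8AP2 siRNA replicate 1, 2 or 3 gave 80, 94 or 146, and a fit restricted to these 6 arrays gave 28 (20 higher and 8 lower). Of the 20 called genes with a symbol H1F0 and CASP8AP2 kept their call in that restricted fit and the other 18 did not.

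Among the 175 genes, 20 had a symbol (12 higher and 8 lower), which is 1.04% of the genes with a symbol, and 155 had none (87 higher and 68 lower). Of the 14 genes that rose by at least 1, 13 had no symbol, as had both genes that fell by at least 1. Among all 22069 genes 20145 had no symbol, so these counts are no result about the large changes. The largest rise was that of ENSG00000124657, which was at 3.16, 3.19 and 3.08 on the control arrays and at 6.27, 6.91 and 6.25 on the knockdown arrays (log2 fold change 3.33, SE 0.12, adjusted p = 4.26e-13). ENSG00000130513 was at 5.31, 5.23 and 5.16 with control siRNA and at 8.67, 8.45 and 8.23 with CASP8AP2 siRNA (3.21, SE 0.15, adjusted p = 1.21e-11). In both genes the lowest knockdown array stood more than 2 log2 units above the highest control array.

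The deepest fall was that of ENSG00000124610, from 7.18, 7.19 and 7.34 to 5.94, 6.12 and 6.30 (log2 fold change -1.12, SE 0.12, adjusted p = 1.64e-05). It was followed by ENSG00000198366, from 9.60, 9.77 and 9.74 to 8.64, 8.33 and 8.92 (-1.07, SE 0.11, adjusted p = 7.64e-06). Knockdown and control arrays were apart in both, and both fell further than CASP8AP2 itself. These calls, those of both IDs that rose and that of CASP8AP2 were kept in every alternative analysis in which the gene was tested. CASP8AP2, at -0.85, does not reach the minimum log2 fold change of 1 in size. For ENSG00000198366 the adjusted p was up to 0.0492.

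The 14 genes that rose by at least 1 started from levels between 3.14 and 9.56 with control siRNA, and 7 of them started below the median of all genes. They rose 2.12-fold to 10.07-fold. All 14 were also called higher in hTERT-RPE1 cells on day 2 (log2 fold change 1.21 to 5.65) and on day 3 (0.83 to 6.48). Among all genes 4.25% and 3.62% were called higher on these days. In U2OS cells on day 1, 6 of the 14 were called higher, 1 lower and 7 not called, with log2 fold changes from -1.42 to 1.42. There 2.86% of all genes were called higher and 3.01% lower. The difference between the lines was itself called for 11 of the 14, each with the lower value in U2OS cells. Since the 14 genes were chosen by their rise in hTERT-RPE1 cells, the choice itself favors a lower value in U2OS cells.

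H1F0 (ENSG00000189060), the gene of the replacement linker histone H1.0, was the only gene with a symbol among them. It was at 6.66, 6.67 and 6.80 on the control arrays and at 9.14, 9.21 and 8.65 on the knockdown arrays (log2 fold change 2.29, 95% interval 2.08 to 2.50, adjusted p = 6.87e-12). CASP8AP2 siRNA replicate 3 was the lowest of the knockdown arrays, and it too stood far above the highest control array. The other replacement variant with a symbol, H2AFX, which encodes the histone that is phosphorylated at DNA breaks, was at 9.45 and 9.60 and was not called (0.15, 95% interval -0.02 to 0.32). None of the 69 genes in the 5 lists of replication-dependent histones had a symbol, so these genes are not reported by name here.

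PMAIP1, TNFAIP2 and ALOX5AP, genes with roles in cell death or inflammation, rose by modest amounts. PMAIP1, which encodes the BH3-only protein NOXA and is a p53 target, was at 8.40, 8.50 and 8.49 with control siRNA and at 8.96, 8.99 and 8.75 with CASP8AP2 siRNA (log2 fold change 0.44, 95% interval 0.29 to 0.58, adjusted p = 0.0027). Its knockdown arrays all lay above the control arrays, and the call was lost when the fit was restricted to these 6 arrays (adjusted p = 0.128). TNFAIP2, a gene induced by tumor necrosis factor, was at 6.56, 6.50 and 6.51 and at 6.89, 6.87 and 6.86 (0.35, adjusted p = 0.0172). The 3 knockdown arrays differed from each other by less than the gap to the controls. Its call was lost without control replicates 2 or 3 or CASP8AP2 siRNA replicates 1 or 2 (0.34 to 0.35). ALOX5AP, which activates 5-lipoxygenase in leukotriene synthesis, was at 5.80, 5.99 and 5.93 and at 6.30, 6.28 and 6.09 (0.32, adjusted p = 0.0249). The call of ALOX5AP was lost without control replicates 1 or 3 or CASP8AP2 siRNA replicates 1 or 2 (0.26 to 0.33).

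Of the remaining rises, 4 were in genes of membrane or signaling proteins. KCNJ15, an inwardly rectifying potassium channel, was at 4.46, 4.16 and 4.07 with control siRNA and at 5.25, 4.82 and 4.80 with CASP8AP2 siRNA (log2 fold change 0.73, SE 0.13, adjusted p = 0.00831), a low level on these arrays. Its call was lost without control replicate 3 or CASP8AP2 siRNA replicate 1 (0.58 to 0.65). RGS2, a regulator of G protein signaling, was at 6.88, 6.78 and 6.83 and at 7.19, 7.29 and 7.09 (0.36, adjusted p = 0.0241). SEMA7A, a membrane-anchored semaphorin, was at 11.16, 11.21 and 11.20 and at 11.60, 11.42 and 11.54 (0.33, adjusted p = 0.0196). CD79A, known as a chain of the B cell receptor complex, was at 4.90, 4.54 and 4.67 and at 5.14, 5.07 and 5.07 (0.39, adjusted p = 0.0332). In all 4 genes the groups did not overlap, and the gap was narrowest in CD79A. The RGS2 call was lost without any of the control replicates or CASP8AP2 siRNA replicates 1 or 2 (0.30 to 0.38). The SEMA7A call was lost without any of the control replicates or CASP8AP2 siRNA replicates 1 or 3 (0.29 to 0.34), and that of CD79A without control replicates 2 or 3 or any of the CASP8AP2 siRNA replicates (0.31 to 0.40).

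The other named rises were small. NEDD4, a ubiquitin ligase, was at 8.64, 8.54 and 8.63 and at 8.97, 8.90 and 8.93 (log2 fold change 0.33, SE 0.05, adjusted p = 0.00181), and its call was lost when the fit was restricted to these 6 arrays (adjusted p = 0.130). AMMECR1 rose by 0.33 (adjusted p = 0.0153), CA13, a carbonic anhydrase, by 0.29 (adjusted p = 0.0285) and WASF1, an activator of actin branching, by 0.26 (adjusted p = 0.0428). The calls were lost without control replicates 1 or 2 or CASP8AP2 siRNA replicates 1 or 2 for AMMECR1 (0.28 to 0.33). For CA13 (0.24 to 0.31) and WASF1 (0.22 to 0.28) they were lost without these or without control replicate 3.

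**Figure D2:**
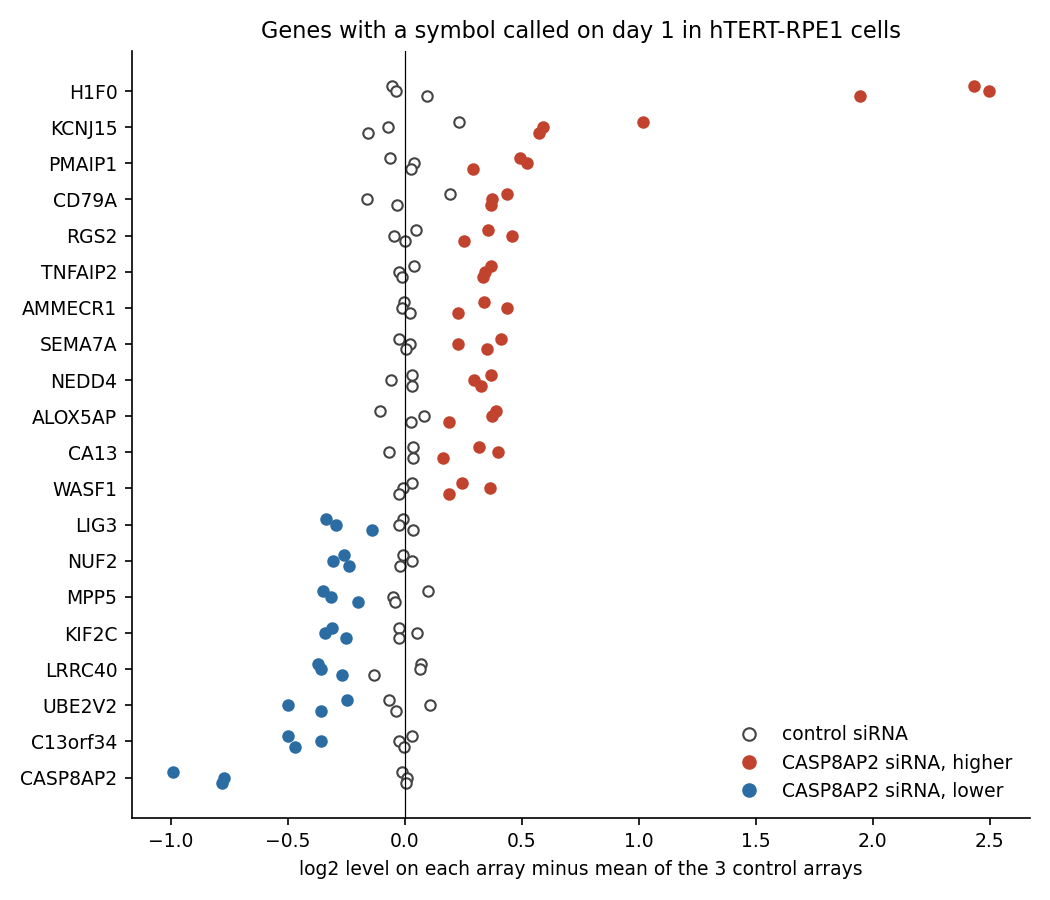
Log2 level of the 20 called genes with a symbol on each array minus the mean of the 3 control arrays, with open circles for control siRNA and filled circles for CASP8AP2 siRNA, and replicates 1, 2 and 3 from top to bottom within a gene. The groups do not overlap in any of the 20 genes, and H1F0 stands apart from the other rises.

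NUF2, KIF2C and C13orf34, whose products act in cell division, fell, and the first 2 belong to the list of mitosis and spindle genes. NUF2, a subunit of the NDC80 complex that holds microtubules at the kinetochore, was at 9.61, 9.64 and 9.59 with control siRNA and at 9.35, 9.31 and 9.37 with CASP8AP2 siRNA (log2 fold change -0.27, SE 0.05, adjusted p = 0.0102). KIF2C, a kinesin that depolymerizes microtubules, was at 8.82, 8.90 and 8.82 and at 8.53, 8.50 and 8.59 (-0.30, SE 0.06, adjusted p = 0.0186). C13orf34, which encodes Bora, an activator of Aurora A, was at 7.71, 7.66 and 7.68 and at 7.18, 7.32 and 7.21 (-0.44, SE 0.07, adjusted p = 0.00359). All knockdown arrays lay below the control arrays in the 3 genes, and 82.9%, 81.1% and 73.5% of the transcripts were left. The NUF2 call was lost without control replicate 2 or CASP8AP2 siRNA replicate 2 (-0.26 to -0.25), and that of KIF2C without any of the control replicates or CASP8AP2 siRNA replicates 1 or 2 (-0.32 to -0.28). That of C13orf34 was lost when the fit was restricted to these 6 arrays (adjusted p = 0.0623).

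The promoters of these 3 genes are shown because cell division genes often carry a cell cycle genes homology region (CHR), the element through which they are repressed outside of G2 and mitosis. The windows run from 250 bases before to 50 bases after the transcription start site in RefSeq (build GRCh38.p14, plus strand), with matches to the CHR letters TTTGAA or TTCGAA on either strand in capitals.
NUF2, chr1:163321704-163322003: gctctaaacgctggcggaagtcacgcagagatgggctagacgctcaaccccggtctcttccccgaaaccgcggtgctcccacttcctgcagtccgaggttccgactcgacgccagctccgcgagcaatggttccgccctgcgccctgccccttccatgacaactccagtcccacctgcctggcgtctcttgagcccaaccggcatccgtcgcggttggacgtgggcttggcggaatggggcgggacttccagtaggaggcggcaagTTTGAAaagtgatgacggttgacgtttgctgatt
C13orf34, chr13:72727673-72727972: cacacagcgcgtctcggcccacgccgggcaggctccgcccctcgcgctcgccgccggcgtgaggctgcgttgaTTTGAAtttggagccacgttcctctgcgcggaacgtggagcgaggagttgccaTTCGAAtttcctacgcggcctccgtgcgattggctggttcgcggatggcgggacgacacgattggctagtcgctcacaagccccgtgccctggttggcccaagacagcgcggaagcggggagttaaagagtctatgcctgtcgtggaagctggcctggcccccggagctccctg
KIF2C, chr1:44739587-44739886: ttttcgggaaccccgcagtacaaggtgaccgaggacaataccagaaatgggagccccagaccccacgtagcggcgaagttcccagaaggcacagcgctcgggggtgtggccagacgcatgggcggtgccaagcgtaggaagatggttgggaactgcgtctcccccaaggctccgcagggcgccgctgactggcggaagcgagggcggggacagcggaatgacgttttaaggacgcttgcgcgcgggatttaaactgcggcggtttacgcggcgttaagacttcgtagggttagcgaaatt
The NUF2 window held TTTGAA starting 17 bases into the transcript. The C13orf34 window held TTTGAA 177 bases before the start site and TTCGAA further downstream, also before it, and the KIF2C window held neither. Of the 20 called genes with a symbol, 17 had a promoter in the table. TTTGAA was found in 3 of 7 genes that fell (NUF2, C13orf34 and LRRC40) and in 0 of 10 that rose, compared with 15.2% of all 35116 promoter windows. TTCGAA was found in 1 and 0 of them and in 1.45% of all windows, and the CCAAT box (letters CCAAT) in 3 and 4 of them and in 34.6% of all windows. A gene with several windows (AMMECR1, SEMA7A and NEDD4, all of which rose) was counted if any of them matched. The shares of all windows are per window, so the 2 measures are not fully alike. These matches describe the letters of the windows, and no binding was measured here.

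The remaining named falls were of diverse function. UBE2V2, a ubiquitin-conjugating enzyme variant, was at 8.09, 8.26 and 8.11 and at 7.91, 7.65 and 7.79 (log2 fold change -0.37, adjusted p = 0.0178). MPP5, a scaffold protein of epithelial polarity, fell by 0.29 (adjusted p = 0.0172), LIG3, the DNA ligase of base excision and single-strand break repair, by 0.26 (adjusted p = 0.0288), and LRRC40 by 0.33 (adjusted p = 0.0142). The calls were lost without control replicate 2 or CASP8AP2 siRNA replicate 2 for UBE2V2 (-0.32 to -0.30), and without control replicate 1 or CASP8AP2 siRNA replicates 1 or 2 for MPP5 (-0.27 to -0.24). They were lost without control replicates 1 or 2 or CASP8AP2 siRNA replicates 1 or 2 for LRRC40 (-0.32 to -0.30), and without these or control replicate 3 for LIG3 (-0.27 to -0.22).

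Gene lists were then described by their counts. In 24 lists of pathways and complexes, 145 genes had a symbol, of which 3 were called higher (H1F0, PMAIP1 and TNFAIP2) and 3 lower (CASP8AP2, KIF2C and NUF2). These 6 calls are 4.14% of the 145 genes, and they include the target of the siRNA. The share was 1.04% among all genes with a symbol and 0.793% among all genes (0.449% higher and 0.344% lower). Lists and members were chosen with earlier results of these data known, so a share above these is no support for a list. The list of mitosis and spindle genes held 39 genes, of which 8 had a symbol here. Of these 8 genes, 2 were called lower, compared with 0.344% of all genes. The median log2 fold change was -0.15 for the 8 genes and -0.004 for all genes. All 8 log2 fold changes were below 0, and in 7 genes the 3 knockdown arrays lay below the 3 control arrays, as in 1801 of all 22069 genes. Members that did not pass the test include CDCA8, a subunit of the chromosomal passenger complex, at 10.36 with control and 10.12 with CASP8AP2 siRNA (-0.24, adjusted p = 0.112), and ESPL1, the separase protease, at 8.66 and 8.50 (-0.16, adjusted p = 0.414). The mitotic kinesin KIF11 was at 10.44 and 10.37 with overlapping groups (-0.07, adjusted p = 0.764). On day 2, 7 of the 8 genes were called lower (2.16% of all genes), and in U2OS cells on day 1, 6 of 8 were called lower (3.01% of all genes). Whether the share of cells in mitosis differed between the groups was not measured on these arrays, and its part in these values was not tested.

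The list of p53 targets held 50 genes, of which 10 had a symbol here, and the others could not be identified by name. PMAIP1 was the single call among the 10 genes, where 0.449% of all genes were called higher, and the median was 0.01. BAX and BBC3, which like PMAIP1 promote apoptosis at the mitochondrion, had log2 fold changes of -0.006 (95% interval -0.15 to 0.13) and 0.01 (-0.37 to 0.39). APAF1, the core of the apoptosome, was at 7.47 and 7.65 (0.18, adjusted p = 0.248) and LRDD, the scaffold of the PIDDosome, at 7.19 and 7.32 (0.13, adjusted p = 0.499). On day 2, 3 of the 10 genes were called higher, namely PMAIP1, APAF1 and LRDD at 0.94, 0.21 and 0.29, compared with 4.25% of all genes.

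**Figure D3:**
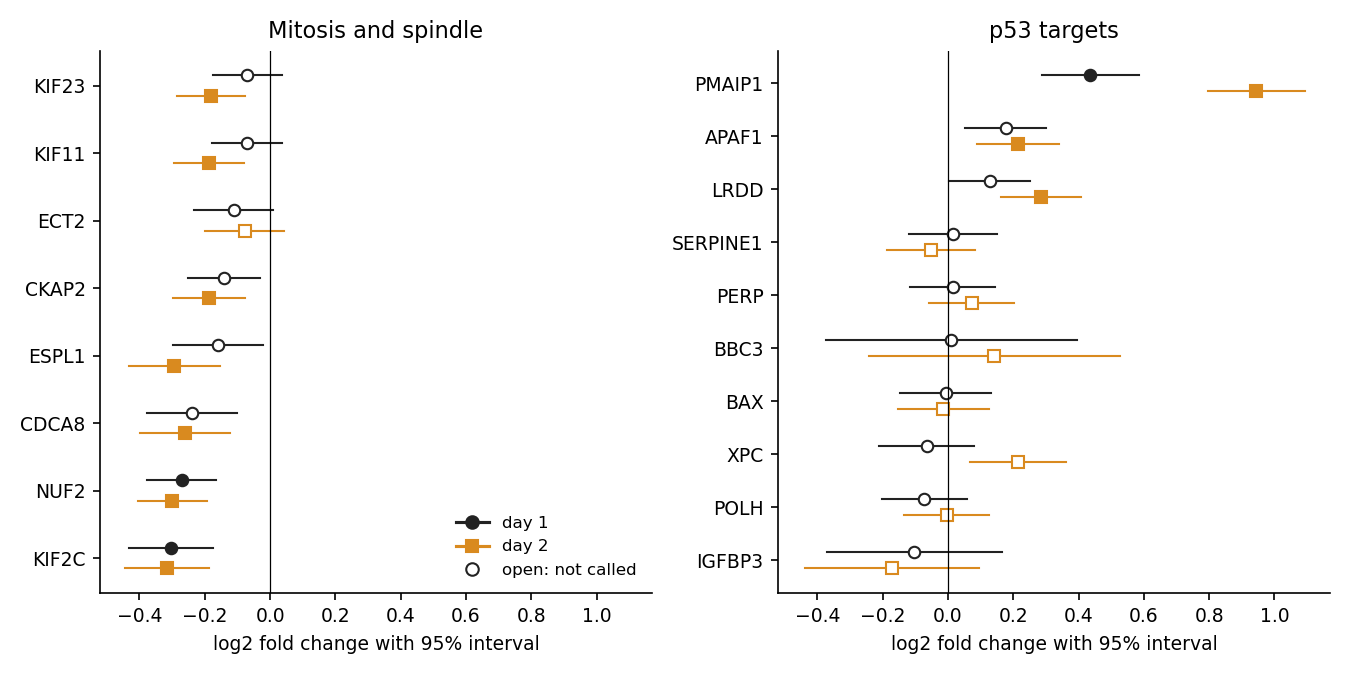
Log2 fold change with its 95% interval for the genes with a symbol in the lists of mitosis and spindle genes (left) and p53 targets (right) in hTERT-RPE1 cells on day 1 (circles) and day 2 (squares), filled where called. All 8 mitosis genes with a symbol, of 39 listed, lie below 0 on day 1, and 2 of them are called. PMAIP1 is the single call on day 1 among the 10 p53 targets with a symbol, of 50 listed.

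No call on day 1 was made in the lists of DNA synthesis and of the response to its failure. With 0.793% of all genes called, the absence of calls in lists of this size says little about them. They were 15 genes of replication licensing and DNA synthesis (log2 fold change -0.10 to 0.19, median 0.02), 14 genes of the DNA damage checkpoint and homologous repair (-0.06 to 0.15, median 0.04), and 7 cell cycle genes, namely 4 cyclins of the A and E types and 3 genes of the E2F and retinoblastoma families (-0.18 to 0.03, median -0.07), with no CDK inhibitor among them. CDC6, which loads the replicative helicase, was at 9.98 and 10.17 (0.19, adjusted p = 0.559), and RRM2, a subunit of ribonucleotide reductase, was at 10.21 on both sides (0.003, 95% interval -0.11 to 0.12). No call was made among 4 histone chaperone genes (-0.12 to 0.02) or among 12 genes of death receptor signaling and apoptosis (-0.07 to 0.30). In the latter, CASP8, which gave CASP8AP2 its name, was at 6.68 and 6.71 (0.03, 95% interval -0.10 to 0.15), and BCL2L11, a BH3-only protein, at 5.96 and 6.25 (0.30, adjusted p = 0.157). Of 11 NF-kB targets and cytokines 1 was called higher (TNFAIP2), compared with 0.449% of all genes, while TNFAIP3 was at 7.36 and 7.51 (0.15, adjusted p = 0.414). In all, 14 of the 19 lists with a gene to test held no call, which at 0.793% of all genes is no result about these lists. Among them were the interferon-stimulated genes (3 with a symbol), the unfolded protein response (9), hypoxia (6), cholesterol synthesis (8), extracellular matrix (16) and Notch and Wnt (9).

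Whether the early changes lasted was examined on day 2, with knockdown and control arrays of its own. On that day 1413 genes (6.4%) were called. Of the 99 genes that rose on day 1, 96 were above control on day 2 and 87 were called higher, and of the 76 genes that fell, 70 were below control and 52 were called lower. Among all genes 44.4% were above and 55.6% below control on day 2, and 4.25% and 2.16% were called higher and lower. The 2 lists shared 141 genes, which is 80.6% of the day 1 calls and 9.98% of the day 2 calls. The rises moved further than the falls, with a median on day 2 of 0.59 against 0.42 on day 1, whereas the falls had a median of -0.34 against -0.40. The log2 fold change was larger in size on day 2 in 69 of 99 rises and in 29 of 76 falls. There were 2 genes, both without a symbol, that were called lower on day 1 and higher on day 2, and 22 of the falls were not called on day 2, with a median there of -0.12. Since the genes were chosen by their day 1 values, a shrinking of the estimate on other arrays is part of such a comparison.

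The difference between the days was called for 144 genes (0.652%), of which 26 were among the 175. Leaving out CASP8AP2 siRNA replicate 3 gave 83 genes when it was that of day 1 and 88 when it was that of day 2. Of the 99 rises, 20 were larger on day 2 and 1 was smaller, and of the 76 falls, 5 were less negative or positive on day 2 and none was more negative. PMAIP1 (0.44 on day 1 and 0.94 on day 2, difference 0.51, adjusted p = 0.0164), TNFAIP2 (0.35 and 0.84, difference 0.49, adjusted p = 0.0194) and RGS2 (0.36 and 0.83, difference 0.47, adjusted p = 0.0441) were among those that grew. The log2 fold change of H1F0 was 2.29 and 2.46, with a difference of 0.17 (95% interval -0.13 to 0.46) that did not pass the test. The largest called differences among genes with a symbol lay in genes not called on day 1. CCNA1, which encodes cyclin A1, was at 3.90, 3.80 and 3.87 with control siRNA and at 3.76, 3.84 and 3.59 with CASP8AP2 siRNA on day 1, with overlapping groups, and its log2 fold change was 2.18 on day 2 (difference 2.31, adjusted p = 9.65e-07). SPINT1, a serine protease inhibitor, was at 4.60 in both groups on day 1 and rose by 1.20 on day 2 (difference 1.20, adjusted p = 0.00285). MCAM, a cell adhesion molecule, was at 4.97 and 5.46 on day 1 with groups that did not overlap (0.49, adjusted p = 0.0621), and rose by 1.56 on day 2.

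**Figure D4:**
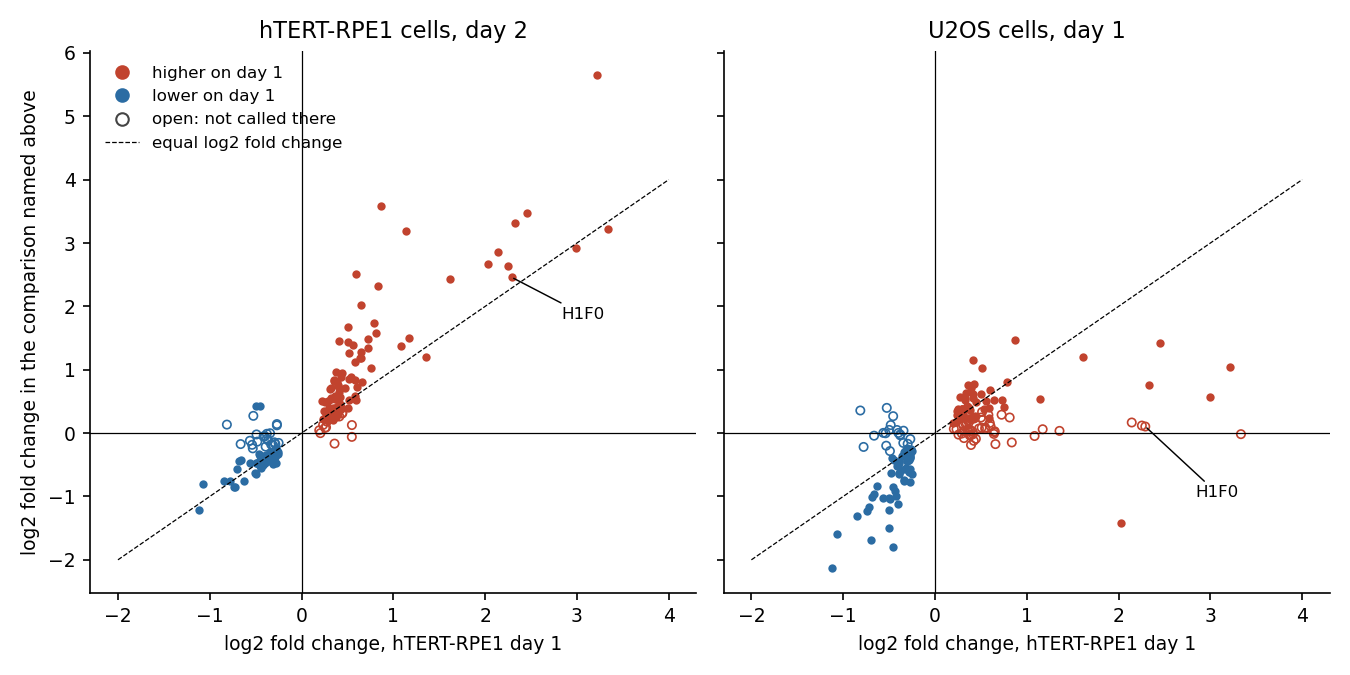
Log2 fold change of the 175 genes called in hTERT-RPE1 cells on day 1 (horizontal axes) against that of the same genes in hTERT-RPE1 cells on day 2 (left) and in U2OS cells on day 1 (right), with 1 point per gene, open where the gene was not called there. Most rises lie above the dashed line of equal values on day 2 (69 of 99 larger), and the largest rises lie below it in U2OS cells.

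On day 3, 1358 genes (6.15%) were called in hTERT-RPE1 cells, in arrays that were normalized separately and are given as values only. Of the genes called on day 1, 87 were also called on day 3, which is 49.7% of the day 1 calls and 6.41% of the day 3 calls. They were 62 of the 99 rises and 22 of the 76 falls with the same sign, and 3 with the opposite sign. Among all genes 3.62% were called higher and 2.54% lower on day 3. CASP8AP2 was at -0.85, -0.76 and -0.77 on days 1, 2 and 3. KCNJ15 was at 0.73, 1.34 and 2.27 and ALOX5AP at 0.32, 0.71 and 1.40, whereas NUF2 was at -0.27, -0.30 and 0.00, KIF2C at -0.30, -0.31 and -0.03, C13orf34 at -0.44, -0.43 and 0.07 and RGS2 at 0.36, 0.83 and 0.08. The differences of day 3 from the other days were not tested.

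The early response was then set beside that of U2OS cells on day 1, where CASP8AP2 siRNA lowered its target by 1.30 on the log2 scale, compared with 0.85 in hTERT-RPE1 cells (difference -0.45, adjusted p = 0.159), and where 1295 genes (5.87%) were called. The lists of the lines shared 107 genes, which is 61.1% of the calls in hTERT-RPE1 and 8.26% of those in U2OS cells. The falls were shared more often than the rises in these counts, a difference that was not tested. Of the 76 falls 57 were also called lower in U2OS cells, with a median there of -0.44 and 50 of larger size, and of the 99 rises 49 were also called higher, with a median of 0.24 and 28 of larger size. Among all genes 3.01% were called lower and 2.86% higher in U2OS cells. All 8 falls with a symbol, CASP8AP2 itself included, were called lower in U2OS cells. The difference between the lines was called for 152 genes (0.689%), of which 34 were among the 175. Among the arrays of hTERT-RPE1 cells, omitting CASP8AP2 siRNA replicate 3 gave 84 genes, and among those of U2OS cells, omitting control replicate 3 gave 101 and omitting CASP8AP2 siRNA replicate 1 gave 94. Of the 99 rises, 17 were smaller and 1 was larger in U2OS cells, and of the 76 falls, 12 were more negative in U2OS cells and 4 less negative or positive. Since the 175 genes were chosen by their values in hTERT-RPE1 cells, a shrinking of the estimate in U2OS cells is part of these counts. The part of the level of knockdown in these differences was not tested.

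H1F0 had the largest difference between the lines among genes with a symbol, with a log2 fold change of 2.29 in hTERT-RPE1 cells and 0.10 in U2OS cells (difference -2.19, adjusted p = 8.49e-09). Its level with control siRNA was 6.71 ± 0.08 (SD, n = 3) in hTERT-RPE1 and 11.92 ± 0.09 in U2OS cells, above the 9.00 ± 0.30 that it reached with CASP8AP2 siRNA in hTERT-RPE1 cells. CD79A was at 0.39 and -0.19 (difference -0.58, adjusted p = 0.0273), and LRRC40 at -0.33 and -0.73 (difference -0.40, adjusted p = 0.0473). The CD79A difference was lost without any of 8 of the 12 arrays (-0.59 to -0.50) and that of LRRC40 without any array but control replicate 3 of U2OS cells (-0.43 to -0.33). NRG3, a ligand of the ERBB receptors, had values of opposite sign in the lines, but its change in hTERT-RPE1 cells was not called. With control siRNA NRG3 was at 4.02 in hTERT-RPE1 cells, below the median of 5.46 over all genes, and at 8.53 in U2OS cells. It was at 4.05, 4.08 and 3.92 with control siRNA and at 4.24, 4.32 and 4.31 with CASP8AP2 siRNA in hTERT-RPE1 cells (log2 fold change 0.27, adjusted p = 0.248), and at -0.80 in U2OS cells (difference -1.07, adjusted p = 0.000115). On day 2 in hTERT-RPE1 cells it was at -0.35 (adjusted p = 0.0258). RGS4, a regulator of G protein signaling, was abundant in hTERT-RPE1 cells at 11.87 with control and 11.73 with CASP8AP2 siRNA (-0.13, adjusted p = 0.427), and rose by 0.72 in U2OS cells (difference 0.85, adjusted p = 2.21e-06).

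Across the further comparisons, 30 of the 99 rises and 21 of the 76 falls were called the same way on day 2, on day 3 and in U2OS cells on day 1. In contrast, 6 of the rises and 16 of the falls were called the same way in none of the 3. A gene that was not called there can still have changed in the same direction.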

How the data were processed

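Total RNA was extracted with the RNeasy kit and analyzed on Affymetrix Human WT 1.1 arrays. The authors used the Bioconductor package affy with a custom CDF of 1 probe set for each Ensembl gene, and they deposited log2 values, made with RMA per the submitters' processing notes. The CDF version and genome build are not given in the sources used here, so no gene coordinates are printed. RMA makes the arrays alike in distribution, so a change in total RNA per cell cannot be seen.

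The deposited log2 values were tested with limma 3.58.1 in R 4.3.3 without further filtering. A single fit held the 24 arrays of days 1 and 2 (8 group means, 16 residual degrees of freedom), and CASP8AP2 siRNA was compared with control siRNA in hTERT-RPE1 cells on day 1. Differences between days and between cell lines were interaction contrasts. The 16 arrays of day 3 had a separate fit. All p-values are two-sided, with Benjamini-Hochberg adjustment across the 22069 genes and a threshold of 0.05 for a call. The procedure was tested on simulated data.

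Symbols come from the authors' pairing of Ensembl identifiers with genes of their siRNA screen, used here in part (8.72% of genes). Named genes were the called genes with a symbol and non-overlapping arrays, up to 15 each way, the called list members, CASP8AP2, NPAT and HINFP, and the 5 largest called differences each way between days and between lines. A gene without a symbol was named for being among the 2 largest rises or falls, and other list members after their values were seen. Members and lists were chosen with earlier results of these data known. Alternatives were other sets of arrays in the fit, centring, cyclic loess normalization, a minimum mean of 5, a trended robust variance, a replicate block, a minimum log2 fold change and leaving out each array. The replicate numbers did not pair the samples.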

Additional observations from a re-analysis of the deposited data

Results flagged for a closer look

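The effect of CASP8AP2 siRNA differed by day or by cell line for the following genes, each by the limma interaction contrast with adjustment over all genes. Values are differences of log2 fold changes.

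Between day 2 and day 1 in hTERT-RPE1 cells the difference was 2.31 for CCNA1 (adjusted p = 9.65e-07), 1.20 for SPINT1 (0.00285), 1.07 for MCAM (0.0019), 1.04 for PGF, a growth factor of the VEGF family (0.00218), and 0.80 for CD82, a tetraspanin (0.00128). It was 0.51 for PMAIP1 (0.0164), 0.49 for TNFAIP2 (0.0194), 0.47 for RGS2 (0.0441) and -0.62 for NRG3 (0.0289). The calls of CCNA1, PGF and CD82 were kept in every alternative in which they were tested, but CD82, at 0.80, does not reach the minimum of 1 in size. Those of SPINT1 and MCAM were lost in a fit restricted to the arrays of the contrast (adjusted p 0.0714 and 0.0688). Leaving out 1 of the 12 arrays ended the call of PMAIP1 for control replicate 2 and CASP8AP2 siRNA replicate 3 of day 1 and for CASP8AP2 siRNA replicate 3 of day 2 (0.44 to 0.49). It ended that of TNFAIP2 for control replicate 1 and CASP8AP2 siRNA replicate 3 of day 1 and for control replicate 3 and CASP8AP2 siRNA replicates 2 and 3 of day 2 (0.46 to 0.48). The RGS2 difference was called only without CASP8AP2 siRNA replicate 2 of either day or control replicate 2 of day 2 (0.42 to 0.49 without the others). The NRG3 difference was lost without 7 of the arrays (-0.63 to -0.57), which leaves out CASP8AP2 siRNA replicate 1 and control replicate 2 of day 1 and the CASP8AP2 siRNA replicates of day 2.

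Between U2OS and hTERT-RPE1 cells on day 1 the difference was 1.14 for IL13RA2, an interleukin receptor chain (adjusted p = 0.00168), 0.85 for RGS4 (2.21e-06), 0.70 for DKK1, a Wnt inhibitor (0.0402), 0.63 for the nuclear receptor NR6A1 (0.0364) and 0.59 for the metalloprotease ADAMTS9 (0.0107). In hTERT-RPE1 cells the log2 fold changes of these 5 genes lay between -0.13 and 0.01, and none was called. With control siRNA IL13RA2, ADAMTS9 and NR6A1 were at 3.59, 4.17 and 5.29 in these cells, below the median of 5.46 over all genes. RGS4 and DKK1 were at 11.87 and 10.48. The difference was -2.19 for H1F0 (8.49e-09), -1.17 for ELA3B (0.0351), -1.07 for NRG3 (0.000115), -0.81 for PCDHB5 (0.0305), -0.66 for TOMM22, a subunit of the mitochondrial import receptor (0.00661), -0.58 for CD79A (0.0273) and -0.40 for LRRC40 (0.0473). ELA3B was at 3.36, 3.48 and 4.08 with control siRNA and at 4.24, 4.54 and 4.34 with CASP8AP2 siRNA in hTERT-RPE1 cells, near the bottom of the range. The calls of IL13RA2, RGS4, H1F0, NRG3 and TOMM22 were kept in every alternative in which they were tested. Of these genes, RGS4 and TOMM22, at 0.85 and -0.66, do not reach the minimum of 1 in size. The call of ADAMTS9 was lost in a fit restricted to the arrays of the contrast (adjusted p 0.0687). Leaving out 1 of the 12 arrays ended the call of DKK1 for every array but control replicate 1 and CASP8AP2 siRNA replicate 3 of U2OS cells (0.63 to 0.74). It ended that of NR6A1 for every array but control replicate 3 and CASP8AP2 siRNA replicate 3 of U2OS cells and CASP8AP2 siRNA replicate 2 of hTERT-RPE1 cells (0.57 to 0.64). It ended that of ELA3B for every array but CASP8AP2 siRNA replicate 2 of U2OS cells and control replicate 3 and CASP8AP2 siRNA replicate 1 of hTERT-RPE1 cells (-1.19 to -0.997). It ended that of PCDHB5 for every array but CASP8AP2 siRNA replicates 2 and 3 of U2OS cells and control replicate 3 and CASP8AP2 siRNA replicates 1 and 3 of hTERT-RPE1 cells (-0.84 to -0.71). That of CD79A was kept without CASP8AP2 siRNA replicates 2 or 3 of U2OS cells or control replicate 1 or CASP8AP2 siRNA replicate 2 of hTERT-RPE1 cells.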

How the results depend on the processing

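The number of genes called on day 1 in hTERT-RPE1 cells (175) was 28 in a fit restricted to the arrays of the contrast, 64 with the replicate block, 270 among genes with a mean of at least 5, and 16 with a minimum log2 fold change of 1 in size. It ranged from 80 to 146 when 1 array was left out. It was 146 in the fit of all 40 arrays, 159 after centring on the median (80 higher and 79 lower), 177 after cyclic loess normalization and 233 with the trended robust variance. The number of genes that differed between day 2 and day 1 (144) was 67 in the restricted fit, 86 with the replicate block and 27 with the minimum, and ranged from 83 to 145 without 1 array. The number that differed between the cell lines (152) was 70, 55 and 24 under the same settings and ranged from 84 to 150. Arrays with the same replicate number did not deviate together (r across genes 0.017, -0.041 and 0.006), so the block result does not describe pairs. The fall of CASP8AP2 was called in every setting in which that gene was tested, with an adjusted p of up to 0.00713. At a log2 fold change of -0.85 it does not reach the minimum of 1 in size. For the named genes, 517 of the alternative values kept their side of the threshold and 211 lost their call, and none changed sign. Because 3 arrays per group estimate the spread poorly on their own, small changes depend on the spread shared with the other groups, and array values compress the fold changes of weakly expressed genes.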
